A study of Mus musculus with 22 samples.

Results

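RING1B ChIP-seq peaks of wild-type (WT) mouse intestinal crypts were matched with those of crypts in which Pcgf6 had been deleted with AhCre (knockout, KO). The WT list held 2368 peaks and the KO list 1662, together 4030 of the 190797 peaks in the 16 lists of the series. A WT peak was called lost when no KO peak overlapped it by 1 bp, and kept when one did. A KO peak with no WT peak under it was called new. There was 1 library for each genotype. No difference between the genotypes could therefore be tested, and every interval below covers counting error over peaks only.

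Both libraries came from formaldehyde-fixed small intestinal crypts of C57BL/6 mice. AhCre is a Cre transgene that is switched on by beta-naphthoflavone (BNF). The labels give the genotype of the WT crypts only as WT, without saying whether these mice carried the transgene or received BNF. An age of 8 to 12 weeks, male sex and 7 days after induction are stated for the RNA crypts of the study, and whether they hold for the ChIP crypts was not stated. How many animals a library pooled was not stated. The other lists used here are PCGF6 and H2AK119ub1 of the same 2 genotypes, RING1B and H2AK119ub1 of WT and Pcgf6 KO crypts from a Villin-driven Cre line induced with tamoxifen, and RING1B and PCGF6 of WT E14 embryonic stem cells (ESC). The ESC lists were assigned by their titles and antibody labels, which the description lines contradict by naming the other antibody for each. A peak list does not measure expression, so the cell type of the crypts could not be checked from it.

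RING1B is the catalytic subunit of Polycomb repressive complex 1 (PRC1), which attaches ubiquitin to a lysine of histone H2A and gives the mark H2AK119ub1. Each PRC1 complex holds 1 of several PCGF proteins. PCGF2 and BMI1 mark the canonical complexes, which read the H3K27 methylation of PRC2, while PCGF6 marks a variant complex, PRC1.6, that contains the DNA-binding proteins MGA, MAX and E2F6 and is best known for silencing germline genes. MGA and MAX bind the E-box, MGA also holds a T-box domain, and E2F6 binds E2F sites.

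Scores are −log10 values of the authors' peak caller, with whether p or q was meant not stated, and every list starts at a score of 10. They rank peaks within a list and were not scaled between libraries. Since only peaks were deposited per library, the depth is unknown. As a check of the deletion, the PCGF6 list held 17163 peaks in WT and 4779 in KO crypts. A PCGF6 peak was still present in KO crypts at all of the 100 strongest WT PCGF6 peaks, with a median score of 96.8 against 410 in WT and a lower score at 99 of 100. The H2AK119ub1 list, from chromatin with a 5% spike of Drosophila S2 chromatin, held 13175 peaks in WT and 16039 in KO crypts. The window of Pcgf6 itself and that of Rnf2, which encodes RING1B, held no RING1B peak in either genotype.

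The promoters of 4 genes among the 12 that lost the strongest RING1B peaks, and of 2 that kept theirs, are shown first because most results turn on the PCGF6 found at them. They were picked with their values known, the lost ones for holding a motif. Each line gives the 250 bases before a transcription start from RefSeq (GRCm38.p6, the build mm10), 5′ to 3′ on the strand of the gene, with matches in capitals to the E-box CACGTG, the T-box AGGTGTGA or the E2F site GCGGGAA on either strand. Vps16 encodes a subunit of vesicle tethering complexes, Dhx40 an RNA helicase, Spop a substrate adaptor of a cullin ubiquitin ligase, and Zpbp2 a zona pellucida binding protein of sperm. Mga encodes the PRC1.6 subunit named above and Isl2 a LIM homeobox factor of neurons. The WT RING1B peak covered all 250 bases of each except Spop, where it covered 136.
Vps16, lost, chr2:130424070-130424319, + strand: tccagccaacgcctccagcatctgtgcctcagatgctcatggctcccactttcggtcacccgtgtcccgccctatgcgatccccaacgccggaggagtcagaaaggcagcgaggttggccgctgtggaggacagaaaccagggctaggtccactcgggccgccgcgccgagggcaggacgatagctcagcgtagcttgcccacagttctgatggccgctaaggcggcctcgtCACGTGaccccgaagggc
Dhx40, lost, chr11:86807661-86807910, − strand: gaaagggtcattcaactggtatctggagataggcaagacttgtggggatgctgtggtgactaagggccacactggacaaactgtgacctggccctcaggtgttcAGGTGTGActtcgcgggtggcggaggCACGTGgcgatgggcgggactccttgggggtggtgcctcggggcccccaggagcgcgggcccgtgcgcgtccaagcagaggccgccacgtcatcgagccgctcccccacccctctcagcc
Spop, lost, chr11:95413833-95414082, + strand: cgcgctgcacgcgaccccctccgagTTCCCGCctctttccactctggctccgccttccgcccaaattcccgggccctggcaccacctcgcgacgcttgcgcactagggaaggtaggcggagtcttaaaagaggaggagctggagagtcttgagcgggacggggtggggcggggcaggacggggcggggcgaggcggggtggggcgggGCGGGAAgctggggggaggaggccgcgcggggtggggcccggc
Zpbp2, lost, chr11:98550847-98551096, + strand: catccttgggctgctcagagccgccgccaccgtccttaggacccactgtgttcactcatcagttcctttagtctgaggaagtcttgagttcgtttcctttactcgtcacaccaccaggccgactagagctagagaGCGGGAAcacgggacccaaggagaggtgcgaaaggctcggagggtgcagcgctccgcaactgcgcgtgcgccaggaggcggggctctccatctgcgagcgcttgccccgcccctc
Mga, kept with a lower score, chr2:119896978-119897227, + strand: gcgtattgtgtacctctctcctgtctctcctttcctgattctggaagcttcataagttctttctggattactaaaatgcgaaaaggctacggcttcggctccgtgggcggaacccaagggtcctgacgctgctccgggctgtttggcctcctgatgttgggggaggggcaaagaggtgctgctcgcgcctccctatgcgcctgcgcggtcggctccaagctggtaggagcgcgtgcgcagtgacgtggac
Isl2, kept, chr9:55540899-55541148, + strand: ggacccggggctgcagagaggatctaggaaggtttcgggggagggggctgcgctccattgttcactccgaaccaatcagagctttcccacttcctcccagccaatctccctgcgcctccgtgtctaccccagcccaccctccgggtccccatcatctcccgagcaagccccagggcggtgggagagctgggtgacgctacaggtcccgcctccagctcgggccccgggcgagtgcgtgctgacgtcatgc
The Vps16 promoter has an E-box 18 bases before the start, Dhx40 a T-box match 146 and an E-box 120 bases before it, Spop E2F matches at 225 and 43 bases, and Zpbp2 1 at 115 bases. Neither the Mga nor the Isl2 stretch holds a match. These stretches do not compare lost with kept promoters, since the lost ones were picked for a motif. Over 300 bases, the kept Igf2bp3 promoter had 2 E-boxes and 1 start of kept Tal1 an E2F match. The lost Rab8b, Ptma, Neto2 and Tasor promoters had no match. Shares over all lost and kept promoters are given below.

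RING1B was lost at 1037 of 2368 WT peaks (43.8%, exact Clopper-Pearson 95% interval 41.8 to 45.8%) and kept at 1331. Another 266 of the 1662 KO peaks were new (16.0%, 14.3 to 17.9%). The losses were weak and narrow peaks. Lost peaks had a median score of 12.8 (quartiles 11.1 and 15.4, highest 55.0) and kept peaks one of 23.0 (15.4 and 45.2, highest 1437), while new peaks had a median of 11.6 in their own list. The median width was 813 bp for lost, 1769 bp for kept and 623 bp for new peaks. Of the 4.99 Mb that the WT list covered, lost peaks held 0.984 Mb.

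The share lost went down steadily with the WT score. From the lowest to the highest quartile of the WT score it was 76.9%, 58.3%, 32.7% and 4.12%. Only 1 of the 307 WT peaks with a score of 50 or more was lost, and 0 of 162 with 100 or more (upper limit 2.25%). By width, 70.1% of the peaks under 1000 bp were lost, 41.2% of those from 1000 to under 2000 bp, 9.60% of those from 2000 to under 5000 bp, and 0 of the 187 of 5000 bp or more. Under the 1 bp rule a wide WT peak is kept if a KO peak touches any part of it. In the WT list, 70 peaks overlapped 2 or more KO peaks. Because the KO list is the shorter one, the balance of lost and new peaks depends on its length. When the WT list was cut to its 1662 highest scores, the length of the KO list, 502 were lost and 432 were new. With a reciprocal overlap of 50% in place of 1 bp, lost peaks (1279) outnumbered kept ones (1089). The share lost by width was not computed under that rule.

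**Figure D1:**
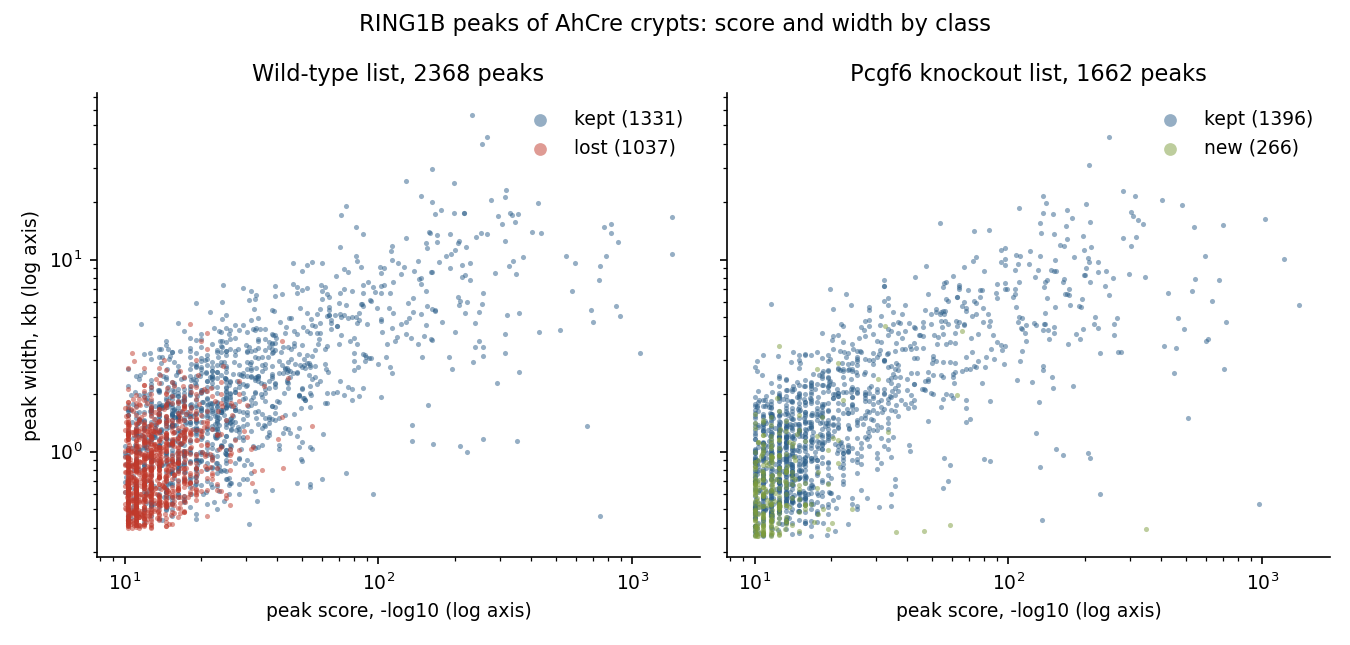
Width (kb, log axis) against score (−log10, log axis) of every RING1B peak in the WT list and in the KO list, with 1 point a peak and colour for the class. Most lost and new peaks sit in the lower left corner, with a few narrow new peaks of high score, and the 60 WT peaks of 10 kb or more are all among the kept ones.

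At the boundary of the matching rule, the shortest overlap that made a kept pair was 34 bp, near Alkbh8 (WT score 78.4, KO score 12.9), and 9 of 1420 overlapping pairs shared under 200 bp. The closest miss was at Rasl10a, a Ras-like GTPase gene, where a lost peak of score 24.0 ended 3 bp from a KO peak. Another 36 lost peaks had a KO peak within 1000 bp, but the median gap was 285 kb. At the other boundary, the score of 10, the weakest lost and the weakest kept WT peaks both stood at 10.0.

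Most lost peaks lay at promoters, here within 1 kb of a transcription start of a protein-coding gene, or of either gene end for the 4392 of 21883 genes that have no start in the promoter table. Promoters held 72.7% of lost, 66.4% of kept and 58.3% of new peaks. Put as the share lost, 46.0% of the promoter peaks, 41.1% of the gene body peaks and 36.4% of the intergenic peaks went. On the autosomes this share ran from 35.7% on chromosome 11 to 56.6% on chromosome 12, and 4 of 22 peaks on the X chromosome were lost (18.2%, 5.19 to 40.3%).

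A larger share of RING1B peaks was lost where PCGF6 was present in WT crypts, and the share was highest where the PCGF6 score was 100 or more. A WT PCGF6 peak lay under 60.6% of lost RING1B peaks (57.5 to 63.5%), 45.1% of kept (42.4 to 47.8%) and 47.7% of new ones (41.6 to 53.9%). The share lost was 35.9% of the 1140 RING1B peaks without PCGF6, 47.5% at a PCGF6 score from 10 to under 20, 46.0% from 20 to under 50, 55.1% from 50 to under 100, 68.9% from 100 to under 300 and 60.6% of the 71 peaks at 300 or more. The bins differed more among WT RING1B peaks with a score of 20 or more, which are rarely lost. Among these, 33 of 485 without PCGF6 were lost (6.80%, 4.73 to 9.42%), against 8 of 32 at a PCGF6 score from 100 to under 300 (interval 11.5 to 43.4%) and 17 of 38 at 300 or more (44.7%, 28.6 to 61.7%). Among them the share was 8.90%, 8.66% and 10.6% in the 3 bins between. These bins also differed in RING1B score and width. The medians were 38.2 and 2783 bp without PCGF6, and 29.3 and 1968.5 bp at PCGF6 scores from 100 to under 300. At 300 or more they were 30.4 and 1161 bp. Whether the share lost differs between peaks of equal RING1B score and width was not tested. The strongest PCGF6 sites were also those with less H2AK119ub1, which lay under 38.03% of the 71 RING1B peaks at a PCGF6 score of 300 or more and under 77.9% of those without PCGF6.

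In the Villin line the share lost was also higher at high PCGF6 scores, with the PCGF6 list taken from AhCre crypts. Of its WT RING1B peaks with a score of 20 or more, 6.22% of 611 were lost without PCGF6, 7.65% of 183 at a PCGF6 score from 10 to under 20, 11.2% of 206 from 20 to under 50, 22.9% of 105 from 50 to under 100 and 62.1% of 132 from 100 to under 300. At 300 or more it was 52.6% of 76. Whether this share differs between the lines was not tested.

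**Figure D2:**
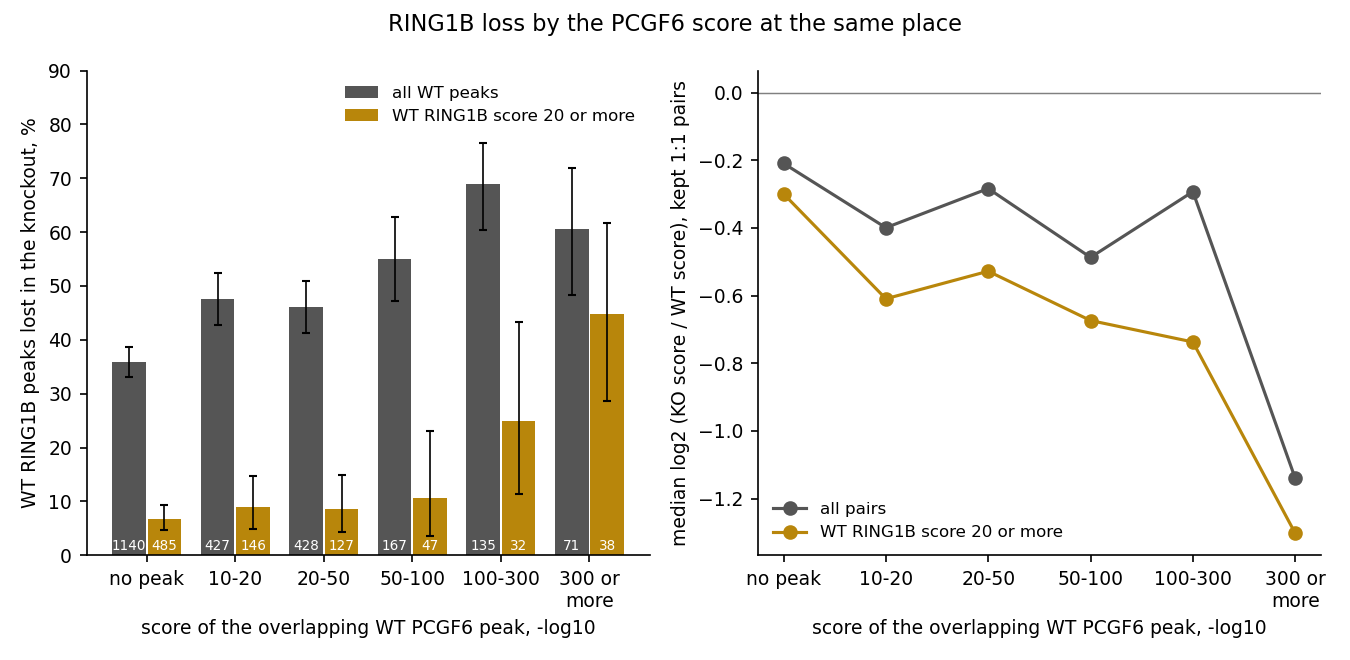
Left, percent of AhCre WT RING1B peaks lost in the KO by the score of the overlapping WT PCGF6 peak (−log10), for all WT peaks and for those with a RING1B score of 20 or more; bars are shares, whiskers exact 95% intervals for counting error, and the white number is the number of peaks. Right, median log2 ratio of KO to WT RING1B score over kept peaks with 1 partner each, in the same bins; among WT scores of 20 or more it goes from −0.30 without PCGF6 to −1.30 at PCGF6 scores of 300 or more.

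Seen from the PCGF6 list, 74 of the 100 strongest WT PCGF6 peaks carried RING1B in WT crypts and 30 did in KO crypts, 28 of them in both. Over all 17163 PCGF6 peaks the numbers were 1236 and 728. The 43 lost RING1B peaks with a PCGF6 score of 300 or more all had a WT RING1B peak in the Villin line too, and 16 had one in the Villin KO. All 43 also had a PCGF6 peak in ESC. A residual PCGF6 peak remained at each of the 43 in KO crypts, lower than in WT at every one, with scores from 11.9 to 310. H2AK119ub1 lay under 13 of them in WT and 10 in KO crypts.

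The highest scores among lost genes were led by such sites. Pced1a and Vps16 share a peak at chr2:130423316-130424671 with a RING1B score of 55.0, and no KO RING1B peak lay within 1604 kb. PCGF6 there scored 1207 in WT and 208 in KO crypts. Micu2, which encodes a regulator of the mitochondrial calcium uniporter, lost a peak of score 42.0 at a PCGF6 score of 1220. Ptma, encoding the nuclear protein prothymosin alpha, lost one of 41.6 at a PCGF6 score of 1242. Dhx40 followed with 32.5 and Spop with 34.8, at PCGF6 scores of 1043 and 671. The peak shared by Deaf1, a transcription factor gene, and Tmem80 scored 32.1 (PCGF6 829). Tasor, which encodes a subunit of the HUSH silencing complex, lost a peak of 27.2 (PCGF6 704), and Neto2, which encodes an auxiliary subunit of kainate receptors, one of 28.2 (PCGF6 322). Zpbp2 lost a peak of 29.4 at a lower PCGF6 score of 146. Rab8b, a small GTPase gene of vesicle transport, stood second in the order with a RING1B score of 44.0 at a PCGF6 score of only 46.4. In the Villin line, Micu2, Spop, Dhx40, Deaf1 and Tasor lost their RING1B peak as well, from WT scores of 135, 76.5, 83.5, 42.3 and 83.2. At Pced1a, Ptma, Neto2, Zpbp2 and Rab8b a Villin KO peak remained, with scores from 11.4 to 19.7. The Villin score went from 91.6 to 19.7 at Pced1a and from 89.1 to 11.4 at Ptma. It went from 29.85 to 13.1 at Zpbp2 and from 25.8 to 18.5 at Neto2. At Rab8b it was higher in the Villin KO, with 13.1 against 11.3 in the Villin WT.

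Outside promoters, strong losses included a peak near Dmrta1 (41.6, 182352 bp from the gene and without PCGF6), a peak in Glcci1 (31.7), one near Klf9, a Krüppel-like factor gene (31.4, PCGF6 score 386), and one near Opa1, a mitochondrial fusion gene (30.5). Near Klf9, RING1B in the Villin line scored 39.5 in WT and 10.3 in KO crypts.

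Of the 87 lost peaks with a score of 20 or more, 33 had no PCGF6 peak under them. H2-Ab1, which encodes a chain of the MHC class II molecule, lost a peak of score 35.4 and Fras1, an extracellular matrix protein gene, one of 30.4. Dnajc12, Tsga10, A930018P22Rik, Hap1, Stau2 and Dmxl2 had lost peaks scoring from 24.0 to 26.4. In the Villin line RING1B was kept at Fras1, Dnajc12, Tsga10, A930018P22Rik, Hap1 and Dmxl2, while H2-Ab1 and Stau2 had a peak only in the Villin KO, with scores of 10.2 and 10.3.

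At the level of genes, 755 of the 1688 with a WT RING1B peak in their window lost it (44.7%), and 910 kept one. Another 148 of 1065 genes with a KO peak had it new (13.9%), and at 30 genes the peaks of the genotypes overlapped or faced each other across the edge of the window. With both lists of equal length, 389 genes were lost and 262 new, and at scores of 15 or more in both lists lost genes (470) slightly outnumbered kept ones (463). Neighbouring genes can share a peak and are then counted each.

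Kept peaks held the strongest RING1B sites. The 12 highest at promoters, most of them at developmental regulators, are given here. Isl2 led with 1437 in WT and 1213 in KO crypts, followed by Igf2bp3, an RNA-binding protein gene of fetal tissues, with 1428 and 1028. The peak between Cyp24a1, the vitamin D-degrading enzyme, and Pfdn4 scored 1068 and 706. Tlx2 and Dqx1 scored 891 and 721, the blood and endothelial factor gene Tal1 881 and 677, Mecom 826 and 602, Otx1 825 and 703, and the peak of Hmx2 with the neighbouring spindle checkpoint gene Bub3 785 and 597. Sp9, Dmbx1 and Ndrg3 were also among the 12, from 775 to 664 in WT and from 634 to 511 in KO crypts. All 12 KO scores at these promoters were lower than their WT scores. PCGF6 scores at these 12 ran up to 188 (Isl2), and 4 of them had no PCGF6 peak. Ndrg3 was the only one of the 12 with no H2AK119ub1 peak in either genotype. Outside promoters, strong kept peaks could also score higher in KO crypts. A kept peak of 5710 bp with a WT score of 865 had a log2 ratio of 0.69. The intergenic peak near Lrrc4c went from 743 to 967. The highest score among kept peaks in the KO list was 1392, above that of Isl2.

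The widest kept peak spanned 56935 bp from Evx2 to Hoxd8 (WT 234, KO 172). It was followed by the Hoxa cluster from Hoxa3 to Hoxa10 (43716 bp), Pax3 (39815 bp), the stretch at Hoxb13 (29752 bp), Cdkn2a with Cdkn2b, which encode cell cycle inhibitors (25680 bp, WT 129 and KO 110), and Pax6 (25200 bp). All 6 carried H2AK119ub1 in both genotypes, with scores from 29.3 to 100.

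Kept peaks mostly had lower scores in KO crypts. In the 1217 pairs of 1 WT and 1 KO peak the median log2 ratio of KO to WT score was −0.27 (quartiles −0.62 and 0.05), and 868 were lower (71.3%). At least 2-fold lower were 102 (8.38%), and at least 2-fold higher 14. A WT peak with a score under 20 cannot have a 2-fold lower partner, because the KO list starts at 10. In the lowest quartile of the WT score, next to that floor, 35 of 130 pairs were lower. Less RING1B per site, fewer cells that carry it and a weaker library cannot be told apart from these scores. In the top quartile of the WT score, the median was −0.60 for the 200 pairs with PCGF6, of which 25.5% were at least 2-fold lower, and −0.27 for the 283 without, of which 8.83% were. At PCGF6 scores of 300 or more, the KO score was lower in 25 of 26 pairs, with a median of −1.14, and at least 2-fold lower in 15. Peaks were narrower as well, with a median ratio of KO to WT width of 0.850.

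The single lowest ratio was at the promoter of Mga itself, where RING1B scored 68.9 in WT and 10.2 in KO crypts (log2 −2.76) under a PCGF6 peak of 1678 and 311. A second peak in the Mga gene at chr2:119871830-119873968 went from 86.8 to 20.4 (PCGF6 1180 and 325). In the Villin line the same 2 peaks went from 101 to 11.2 and from 130 to 23.6. The tyrosine kinase gene Fer (53.7 and 12.5) and Pik3ip1, which encodes an inhibitor of PI3 kinase (37.0 and 10.1), also had PCGF6 scores over 300. The peaks of Nxn (50.03 and 12.4), Tpm1, a tropomyosin gene (43.0 and 11.6), and Zfp521 (37.0 and 10.1) had no PCGF6, and that near Zfp184 (63.9 and 12.4) a PCGF6 score of 12.3.

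At the other end, Lhx2, a LIM homeobox gene, went from 14.01 to 41.0, Gad2, the glutamate decarboxylase gene, from 24.0 to 54.2, a peak near the stem cell factor gene Sox2 from 10.3 to 25.2 and a peak in the Six6 gene from 12.2 to 27.2. The remaining high ratios were near Zfp644 (11.0 and 27.0), near Alkbh8 (23.1 and 65.9), and at 2 narrow peaks, near Axin2 (419 bp, 31.0 and 136) and near Samd9l (605 bp, 95.3 and 229). Both narrow peaks had Villin RING1B scores between 151 and 196 in the 2 genotypes and neither PCGF6 nor H2AK119ub1. The exception among the 26 pairs at high PCGF6 was a peak of 463 bp near Lrrc4c, where RING1B went from 743 to 967 and the PCGF6 score from 793 to 1458. It is the 1 peak among the 100 strongest PCGF6 peaks whose PCGF6 score was not lower in the KO. RING1B there also scored 1982 and 2403 in the Villin WT and KO lists and 432 in ESC, and PCGF6 471 in ESC. No crypt list had H2AK119ub1 there. Mappability of this peak, and of those near Alkbh8, Axin2 and Samd9l, was not tested.

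**Figure D3:**
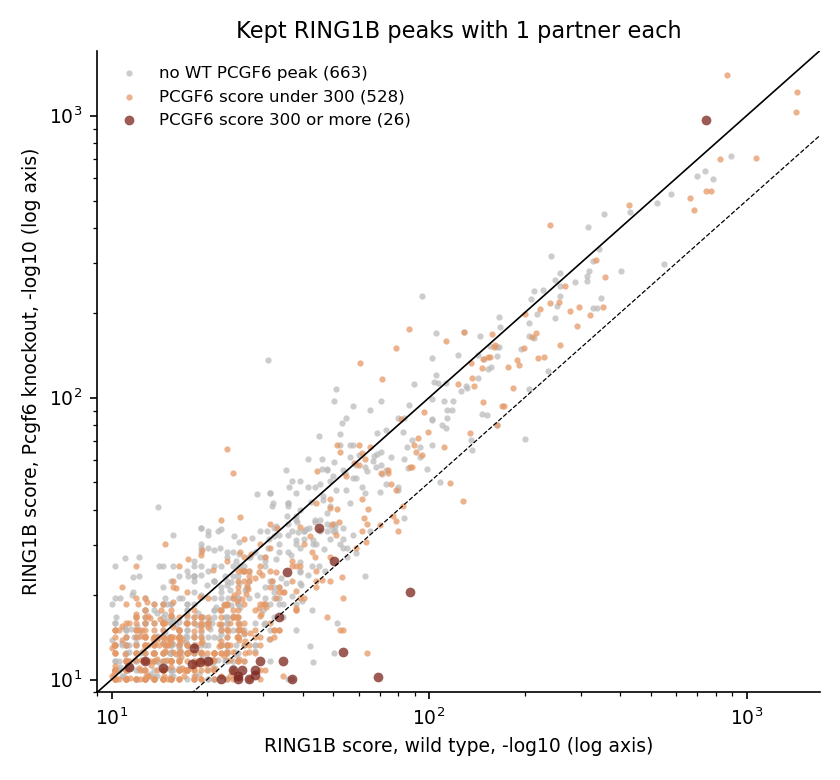
KO against WT score (−log10, both axes log) of the 1217 kept RING1B peaks with 1 partner each, coloured by the WT PCGF6 score; the solid line marks equal scores and the dashed line a KO score 2-fold lower. Of the 26 pairs with a PCGF6 score of 300 or more, 25 lie below the solid line and 15 at or below the dashed one.

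H2AK119ub1 went with kept rather than lost RING1B. The WT mark lay under 79.4% of kept (77.1 to 81.6%), 53.4% of lost (50.3 to 56.5%) and 43.2% of new peaks (37.2 to 49.4%). Where RING1B was lost, the mark was mostly still called: 480 of the 554 lost peaks with WT H2AK119ub1 had it in KO crypts (86.6%, 83.5 to 89.4%), against 1020 of 1057 kept ones (96.5%, 95.2 to 97.5%). An H2AK119ub1 peak was called only in KO crypts at 72 of 483 lost peaks without the mark in WT (14.9%) and at 79 of 274 kept ones (28.8%). Combining both readouts, RING1B was lost at 69.7% of 505 peaks with PCGF6 only, 52.0% of 252 with neither, 38.2% of 723 with both and 31.3% of 888 with H2AK119ub1 only, beside 43.8% over all. Within the third quartile of the WT score the order was the same at its ends, with 54.4% for PCGF6 only and 23.0% for H2AK119ub1 only, while 33.2% with both and 30.9% with neither lay between. In the top quartile these 4 shares were 17.3%, 0.331%, 4.64% and 14.7%.

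Some genes lost RING1B together with the mark in their window. Besides Rab8b, Micu2, Neto2 and H2-Ab1, these included Vsig2 (25.1), Car2, the carbonic anhydrase 2 gene (23.0, PCGF6 48.4), and the shared promoter of Fancf, a DNA repair gene, and Gas2 (23.0, PCGF6 811). Their WT H2AK119ub1 scores in the window were between 10.4 and 15.6, near the start of the list at 10, and at H2-Ab1 and Vsig2 the mark lay in the window but not under the peak.

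In ESC, RING1B lay under 74.9% of kept, 50.8% of lost and 51.9% of new peaks, with a median ESC score of 113 at kept and 49.3 at lost ones. PCGF6 of ESC lay under 56.3% of kept, 50.4% of lost and 36.8% of new peaks. Villin WT RING1B lay under 95.8% of kept, 69.7% of lost and 64.7% of new peaks.

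**Figure D4:**
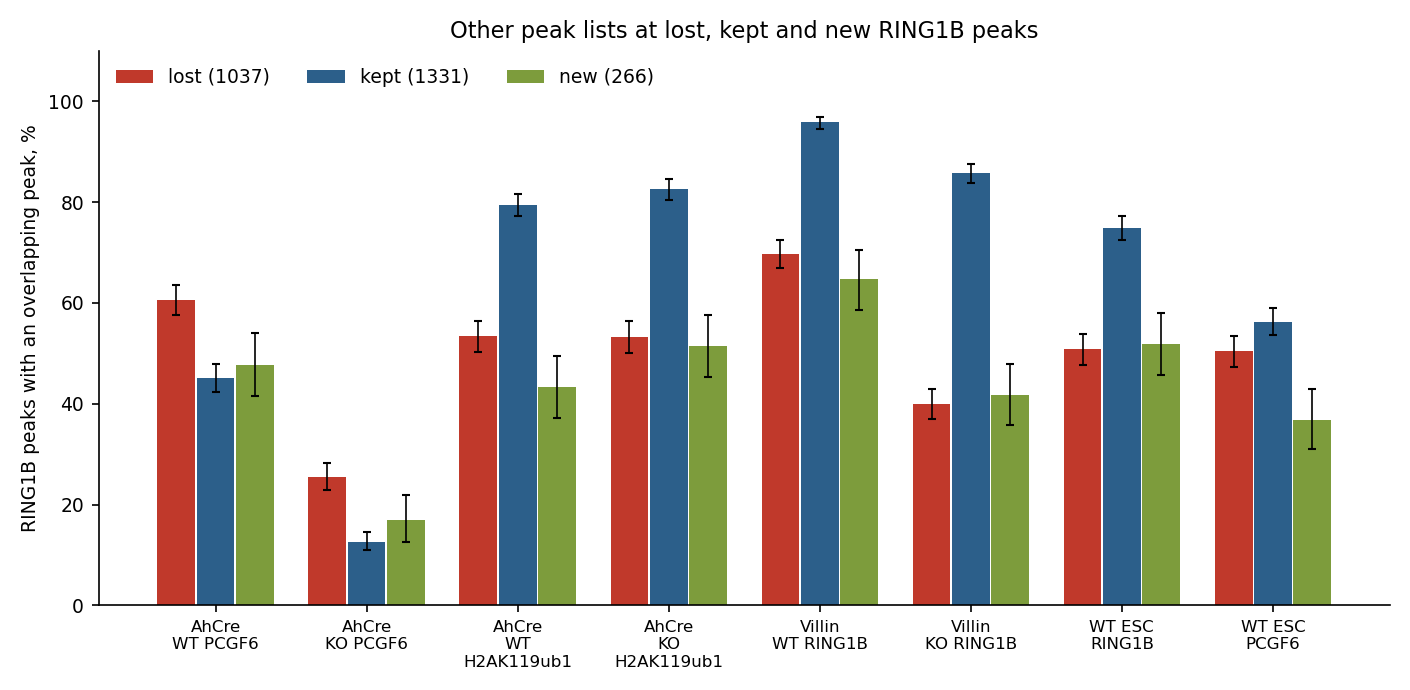
Percent of lost, kept and new AhCre RING1B peaks that overlap a peak (1 bp) of 8 other lists, with exact 95% intervals for counting error. PCGF6 of WT crypts is the list in which lost peaks stand above kept ones, at 60.6% against 45.1%, together with PCGF6 of KO crypts, at 25.5% against 12.6%; in the other 6 kept peaks stand higher.

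New peaks were fewer and weaker than the lost ones, and 87.2% had a score under 15. The highest at promoters were Cd74, which encodes the invariant chain of MHC class II (24.2), Fndc3c1 (22.3), the carbonic anhydrase gene Car7 (21.3) and the homeobox genes Six4 (21.3) and Barhl1 (20.4). Bmp6, a BMP ligand gene, Arsb, a lysosomal sulfatase gene, and Ubr4, a ubiquitin ligase gene, each scored 19.4, and Cacnb4, Ndufs6, Slc25a21 and Asb4 from 17.6 to 18.5. Of these 12, 11 had a WT RING1B peak in the Villin line, Ubr4 being the exception with a Villin KO peak alone. H2AK119ub1 was already present in WT crypts under the peaks of Car7, Six4, Barhl1, Bmp6, Cacnb4 and Slc25a21.

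Outside promoters, the highest new score was a narrow peak of 394 bp, 281782 bp from Pex2 (347). It had scores of 356 and 282 in the Villin WT and KO lists, so that it was missing from only 1 of the 4 crypt RING1B lists. Narrow new peaks in Filip1l (58.6), Zc3h7a (46.6) and Jarid2 (36.0), from 381 to 414 bp wide, were likewise in both Villin lists. Over all new peaks, 91 of 266 were in both Villin lists (34.2%), 81 in the Villin WT list only, 20 in the Villin KO list only and 74 in neither.

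A stretch of chromosome 13 in and beside Tmem267, at chr13:119596316-119617478, held 4 new peaks with scores of 65.9, 62.7, 30.7 and 32.6, and was singled out after its values were seen. The AhCre WT lists had 0 RING1B and 0 H2AK119ub1 peaks between these positions, while the KO lists had 4 PCGF6 and 4 H2AK119ub1 peaks. The WT PCGF6 list had 2 peaks there. PCGF6 under the new RING1B peaks scored from 27.1 to 53.1 in KO crypts and was called under 1 of the 4 in WT crypts (13.4). The Villin lists had 1 WT and 2 KO RING1B peaks there. Copy number and mappability of the stretch were not tested.

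In the Villin line, 2424 of 4403 WT RING1B peaks were lost (55.1%) and 370 of 2464 KO peaks were new (15.0%). Of the 755 genes that lost RING1B in AhCre crypts, 269 also lost it in Villin crypts (35.6%), 284 kept it (37.6%), 161 had no Villin peak, 38 were new and 3 had peaks across the edge of the window. The 161 genes without a Villin peak and the 38 new ones had no Villin WT peak in their window to lose. Of the 910 kept genes, 784 were kept in both lines (86.2%) and 82 were lost in the Villin line (9.01%). Of the 148 new genes, 10 were new in both (6.76%), while 60 were kept and 48 lost in the Villin line.

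**Figure D5:**
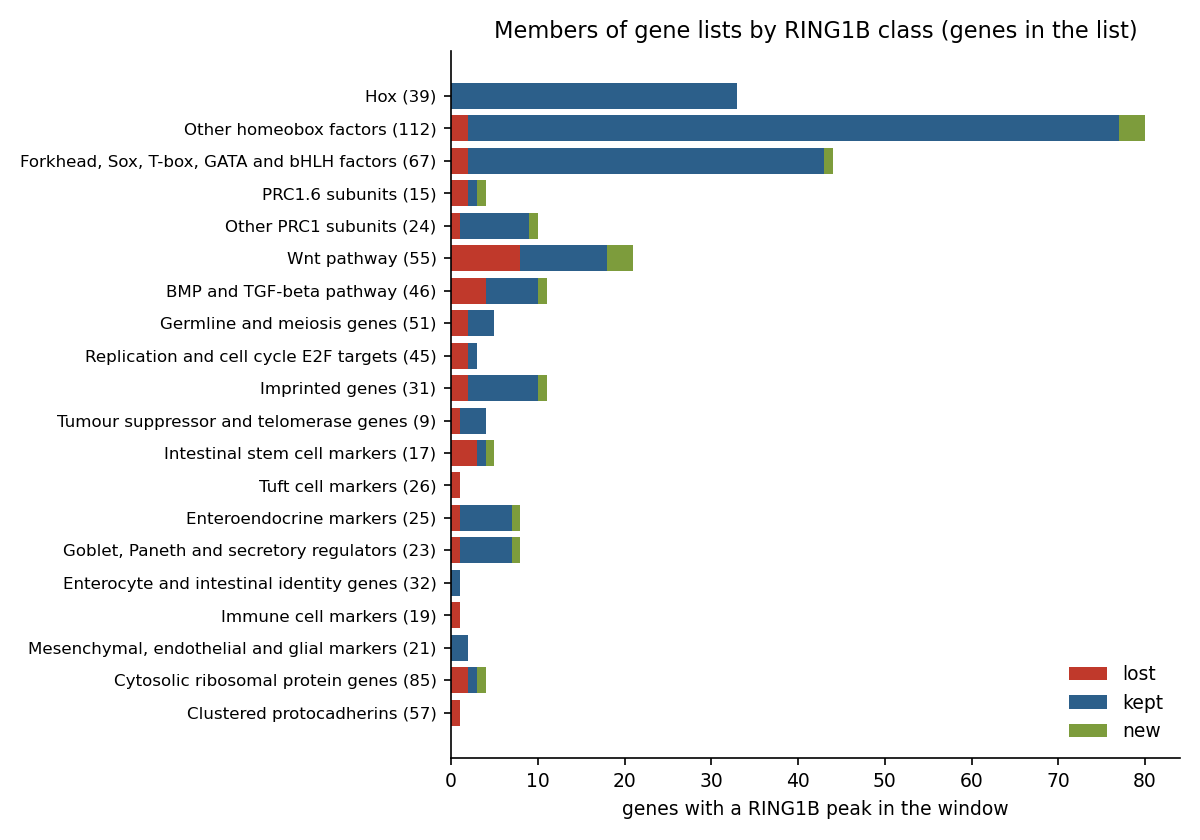
Number of genes of each list with a lost, kept or new RING1B peak in their window; the number after the name is the number of genes in the list, and PRC2 has no bar because none of its 12 genes had a peak (genes whose peaks crossed the edge of the window are not drawn either). All 33 Hox genes with a peak are kept, and 8 of the 18 Wnt pathway genes with a WT peak are lost, beside 755 of 1688 over all genes.

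Across gene lists, most transcription factor genes of development with RING1B kept it, while over all genes 755 of 1688 lost it and 910 kept it. Their median WT scores were high, at 162 for Hox, 93.8 for other homeobox and 60.1 for forkhead, Sox, T-box, GATA and bHLH genes. Over all genes with RING1B the median was 16.3. Peaks of high score were rarely lost anywhere, with 1 of 307 lost at 50 or more. Whether these genes differ from others of equal score was not tested. All 33 Hox genes with a WT peak kept it (of 39 in the list), with WT scores from 13.6 at Hoxc5 to 329 at Hoxa11 and Hoxa13, and 30 of 33 KO scores were lower, beside 693 of 910 over all kept genes. Several Hox genes share 1 broad peak. Of 112 other homeobox genes, 75 kept RING1B and 2 lost it, Dlx3 (18.2) and Mnx1 (14.5), while Barhl1, the hair cell factor gene Pou4f3 (12.5) and the endocrine factor gene Nkx2-2 (10.8) were new. Of 67 forkhead, Sox, T-box, GATA and bHLH genes, 41 kept it, and the 2 lost were Foxa2, an endoderm factor gene (12.8), and Tcf15 (11.1). The median log2 ratio of KO to WT score over kept genes was −0.15 for Hox, −0.24 for the other homeobox genes and −0.10 for the third list, beside −0.33 over all 910 kept genes.

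Some genes of PRC1 itself carried RING1B. All 15 PRC1.6 subunit genes had PCGF6 in their window, beside 8759 of 21883 genes over all. Of these 15, Mga kept a RING1B peak, Hdac2 (13.6, PCGF6 313) and Ring1, the paralog of RING1B (10.3), lost theirs, and Rybp was new (10.1). The lost and new peaks among them lay near the floor of 10, and over all genes 755 of 1688 lost RING1B. Of the 24 other PRC1 genes, 8 kept RING1B, each with a lower KO score (beside 693 of 910 kept genes over all): the canonical subunit genes Cbx2 (293 and 179), Bmi1 (189 and 136) and Cbx8 (176 and 79.8) were among the strongest. Pcgf2 lost a weak peak (11.3) and Kdm2b was new (10.8). None of the 12 PRC2 genes had RING1B in either list.

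Wnt and BMP genes, which set the crypt niche, were found among lost, kept and new genes. The median WT score of the Wnt genes with RING1B was 16.3, as over all genes with RING1B (16.3). Of 55 Wnt pathway genes, 18 had a WT peak, of which 8 lost it (44.4%, beside 44.7% over all genes). These were the ligand genes Wnt10b (23.0), Wnt9b (15.0), Wnt3 (11.1), the niche ligand of Paneth cells, and Wnt6 (10.0), the receptor genes Fzd4 (16.3) and Fzd7 (12.3), the transcription factor gene Tcf7 (13.6) and the feedback inhibitor gene Axin2 (11.1). H2AK119ub1 remained called in KO crypts at the 6 of them that had it in WT, with KO scores from 20.6 at Fzd7 to 73.0 at Wnt10b. Lef1 (147 and 96.8), Wnt11 (38.8 and 19.7) and Wnt5a (37.0 and 19.8) were among the 10 kept genes, which all had lower KO scores, beside 693 of 910 kept genes over all. In addition, Wnt2b, Wnt7b and Sfrp2 were new, with scores from 10.1 to 11.6. Of 46 BMP and TGF-beta genes, 11 had a WT peak. The BMP antagonist gene Chrd (20.1), the ligand genes Bmp3 (14.5) and Bmp4 (10.8) and the receptor gene Bmpr1a (11.9) lost theirs, 6 kept one, among them the antagonist gene Fst (113 and 78.3), and Bmp6 was new.

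The share of intestinal cell type markers with WT RING1B differed between lists, beside 7.71% of all protein-coding genes. It was 23.5% for stem cell, 28% for enteroendocrine and 30.4% for secretory genes, 3.85% for tuft cell and 3.12% for enterocyte genes. Over all genes with WT RING1B, 755 of 1688 lost it (44.7%) and 910 kept it. The median WT score was 13.1 for stem cell, 19.97 for secretory and 31.4 for enteroendocrine genes with RING1B, beside 16.3 over all. Over all peaks the share lost fell from 76.9% in the lowest to 4.12% in the highest quartile of the WT score. Whether these lists differ from other genes of equal score was not tested. Of 17 stem cell markers, Lgr5 (13.2), Slc12a2 (13.1) and Axin2 lost a weak peak, Sox9 kept one (15.6 and 15.95) and Ascl2, the stem cell master regulator gene, was new (11.6). RING1B at Lgr5 and Slc12a2 was found in Villin KO crypts, with scores of 19.9 and 10.3. Secretory regulators kept theirs at 6 of 7 genes, led by Atoh1, the determinant of secretory cells (147 and 127), and Gfi1 (102 and 181), while the Notch target gene Hes1 lost its peak (13.6) and the Notch ligand gene Dll1 was new (10.8). Enteroendocrine genes kept it at 6 of 7, among them Pax6 (199 and 147), Insm1 (65.0 and 66.6) and Isl1 (31.4 and 45.9), whereas Fev, a serotonergic factor gene, lost a peak of 10.3. Of 32 enterocyte and intestinal identity genes, only Prdm1 had a peak, kept at 20.9 and 11.5. Of 26 tuft cell markers, only Ltc4s had one, lost at 10.3. Among genes of other cell types, Cd14 of 19 immune markers lost a peak (12.5), and Pdgfra (82.6 and 55.4) and Vim (23.6 and 15.8) of 21 mesenchymal, endothelial and glial markers kept theirs.

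Germline genes, the classic targets of PRC1.6, had 5 WT peaks among 51 genes. PCGF6 lay in the window of 14 of the 51, beside 8759 of 21883 genes over all. For this and the next lists, 755 of 1688 genes with WT RING1B lost it over all (44.7%). The meiotic cohesin gene Stag3 (33.6 and 16.7, PCGF6 683) and the piRNA pathway gene Tdrkh (29.3 and 11.6, PCGF6 466) kept a lower peak, and Zcwpw1, a histone reader gene of meiosis, kept one of 11.4 and 11.0 (PCGF6 902). Syce2, of the synaptonemal complex (16.3, PCGF6 189), and Meiob (11.9) lost theirs. In the Villin line the Zcwpw1 peak went from 94.99 to none. Of 31 imprinted genes, 8 kept RING1B, 5 of them with a higher KO score, beside 217 of 910 kept genes over all. Among the 5 were Peg10 and Sgce, which share a peak (16.3 and 25.2), Mest (32.3 and 42.3) and Plagl1 (10.7 and 19.4). Plagl1 lay in the lowest quartile of the WT score, where only 35 of 130 pairs were lower in KO crypts. Igf2r lost a peak of 21.0 under a PCGF6 peak of 702, and Gnas one of 11.9. Cdkn2a (403 and 281), Cdkn2b and Cdkn1a (15.6 and 21.3) of 9 tumour suppressor and telomerase genes kept RING1B, and Tert, the telomerase subunit gene, lost a peak of 10.2, as it did in the Villin line from 15.1. Of 45 replication and cell cycle genes of the E2F programme, 38 had PCGF6 in their window and 3 had RING1B (6.67%), of which 2 lost it, E2f8 (10.3) among them. Over all 21883 genes, 8759 had PCGF6 and 7.71% had RING1B. Of 85 ribosomal protein genes, 77 had PCGF6 and 3 had RING1B (3.53%), lost at Rpsa (19.2) and Rpl19 (11.9) and kept at Rpl10a. The single clustered protocadherin gene with RING1B, Pcdhgc3, lost it (14.3).

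The promoter sequences of lost and kept genes were alike in CpG content, and both stood above all promoters. Over the 300 bases from 250 before to 50 after each start, the median ratio of observed to expected CpG was 0.790 for 687 promoters of lost genes, 0.777 for 796 of kept genes and 0.567 for all 21262. The E-box CACGTG, the motif in the Vps16 and Dhx40 stretches above, was found in 15.2% of the 495 promoters of lost genes with PCGF6 (12.1 to 18.6%), 5.73% of the 192 without (2.89 to 10.0%), 11.3% of the 426 of kept genes with PCGF6 (8.43 to 14.7%), 6.49% of the 370 without (interval up to 9.50%) and 7.84% of all. The E2F site GCGGGAA gave 11.3%, 5.73%, 12.2% and 6.76% in the same order and 5.95% of all. The T-box AGGTGTGA was in 9 of 687 promoters of lost genes (1.31%) and 1.15% of all. By PCGF6 score, over lost and kept genes together, the E-box was in 6.23% of promoters without PCGF6, 8.75% at scores from 10 to under 20, 11.5% from 20 to under 50, 21.4% from 50 to under 100, 19.6% from 100 to under 300 and 14 of 70 at 300 or more. A match describes letters in this window and does not show that a factor binds there.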

How the data were processed

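ChIP-seq of chromatin from mouse small intestinal crypts, fixed with 1% formaldehyde for 15 min and sonicated to about 500 bp, was deposited as 1 peak list per library. The values are −log10 scores of peaks called by the authors, and all deposited lists start at a score of 10; whether p or q was meant is not given in the sources used here. Per the submitters' processing notes, the tools were MACS2 2.1.1 and Bowtie 1.1.2 or 1.2.2; hg38, dm6 and mm10 are listed as builds. Their roles and settings are not given in the sources used here. The depth is unknown, since the lists hold no counts.

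Samples were grouped by title. Peaks on chromosomes 1 to 19, X and Y were matched by 1 bp overlap, which left out 1 WT peak, using Python 3.11.15, numpy 2.4.6 and pandas 2.3.3. Exact Clopper-Pearson intervals came from scipy 1.17.1. The matching was tested on simulated data. A gene was lost when its window, 1000 bp around each start, held a WT peak, no KO peak and no WT peak that overlapped a KO peak. New is the mirror. Starts and sequences were taken from RefSeq (GRCm38.p6) for 17491 of 21883 genes, and gene ends were used for 4392.

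Named genes are the 12 highest lost, kept and new entries, the 8 lowest and 8 highest kept ratios, the 8 highest lost with PCGF6, without it, with lost H2AK119ub1 and kept in the Villin line, genes opposite between lines, members of the 21 gene lists, the 6 widest kept and the 6 highest lost and new peaks outside promoters, and Pcgf6 and Rnf2. The peaks near Lrrc4c, Alkbh8 and Rasl10a were named after their values were seen. The comparison, lists and alternatives were chosen with earlier results of these data known, and the PCGF6 score bins after seeing the values. Other matching rules, score minimums, windows and list lengths were tried. Lists of CTCF and RAD21 were not used, and some entries that these rules name are not reported here.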

Additional observations from a re-analysis of the deposited data

Results flagged for a closer look

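Some genes went opposite ways in the lines, and these differences were not tested, with 1 library a genotype. A RING1B peak was lost in AhCre crypts and new in Villin crypts at 38 genes, 5.03% of the 755 lost in AhCre crypts. Of the 910 kept genes, 16 were new in Villin crypts (1.76%). Most of the 38 had an AhCre score under 15, near the floor of 10. H2-Ab1 (AhCre WT 35.4, Villin KO 10.2), the RNA-binding protein gene Stau2 (24.0 and 10.3) and the carbonic anhydrase gene Car2 (23.0 and 10.3) had the highest AhCre scores, followed by Lhfpl2 (23.0 and 13.6) and the glutaminase gene Gls2 (20.1 and 11.4).

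The reverse, new in AhCre crypts and lost in Villin crypts, was found at 48 genes, 32.4% of the 148 new in AhCre crypts. Of the 755 genes lost in AhCre crypts, 269 were also lost in Villin crypts (35.6%), and of the 910 kept genes 82 were (9.01%). Most of the 48 had an AhCre score under 15 as well. Cd74 (AhCre KO 24.2, Villin WT 60.5), the calcium channel subunit gene Cacnb4 (18.5 and 14.7), the mitochondrial carrier gene Slc25a21 (17.7 and 12.1) and Cog6, a Golgi tethering subunit gene (17.1 and 12.0), led this group. It also held Stx4a (12.0 and 40.0), where PCGF6 scored 462 in WT and 117 in KO crypts, and the MHC class I gene H2-K1 (10.3 and 22.3).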

How the results depend on the processing

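Of 86 values recomputed, 37 moved by less than the limits set and 49 by more. The balance of lost against kept turned under some settings. The main limits are 1 library a genotype, an unknown depth and the score floor of 10, next to which most lost and new peaks lie. With a reciprocal overlap of 50%, more WT peaks were lost (1279) than kept (1089, or 46.0%), and 573 KO peaks were new. At scores of 15 or more in both lists, 594 peaks were lost, 711 kept and 111 new, with 470 genes lost, 463 kept and 63 new, so that lost genes outnumbered kept ones by a small margin. At 20 or more in both, 348 were lost, 527 kept (60.2%) and 60 new. When peaks of 20 or more were set against the whole other list, 87 were lost, 788 kept (90.1%) and 16 new. With lists of equal length 502 peaks were lost and 432 new, 69.8% were kept, and 389 genes were lost and 262 new. There, lost peaks had a median score of 15.4, a median width of 936 bp and a promoter share of 76.5%, kept peaks a median score of 25.3 and width of 1978 bp, and the median log2 ratio at kept peaks was −0.34. When a peak had to overlap the start itself (window of 0 bp), 387 genes were lost, 500 kept and 46 new.

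For WT RING1B scores of 20 or more, H2AK119ub1 lay under 64.4% of lost and 85.0% of kept peaks, and Villin WT RING1B under 87.4% and 98.5%. With the other list at 20 or more, the shares for lost and kept peaks were 41.0% and 28.2% for PCGF6, 27.2% and 55.3% for H2AK119ub1 and 20.4% and 70.2% for Villin RING1B. When the other peak had to cover 50% of the RING1B peak, they were 53.9% and 27.7%, 40.6% and 63.4%, and 61.5% and 89.3%. Among alternatives chosen after seeing the data, the share lost without PCGF6 went from 35.9% to 21.5% with lists of equal length, while at PCGF6 scores of 300 or more it went from 60.6% to 61.2%. The cause of these shifts was not tested beyond the fewer peaks that each setting leaves. No paired analysis was possible because each genotype had 1 library.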
